A study of Macaca mulatta with 9 samples.

Results

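The genes of mitosis and the cell cycle were followed through small antral follicles of the rhesus macaque ovary. They were taken by name from the array's annotation. A probe set belonged when its single gene symbol was MKI67, TPX2 or CDC20, or began with KIF and a digit, CENP and a letter, CDCA and a digit, CCNA, CCNB, CCND or CCNE and a digit, NCAP, BUB, AURK, PLK and a digit, or ANAPC. This gave 83 genes on 155 probe sets, of 14132 genes with a probe set of 1 symbol. Of the 83, 75 genes had a signal high enough on average over the arrays to be tested, on 131 probe sets. The 8 genes left out were all kinesins of intracellular transport or cilia, KIF5A, KIF5C, KIF6, KIF12, KIF16B, KIF17, KIF26B and KIF27. A filter on the mean over all arrays keeps genes that are high in any group, so the 75 are not all members. The names AURKAIP1 and CCNB1IP1 matched as well, although these genes encode partners of a kinase and of a cyclin and not family members. No probe set with a single symbol stood for CDC20, BUB1, BUB1B, PLK1, PLK4, KIF11, KIF20A, NCAPD2, NCAPH or CCND2, and these genes were not analysed here.

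All 9 samples were taken at or near menses, in the early follicular phase, from young adult animals, with 3 biological replicates in each of 3 groups. The first group ate a Western-style diet and had chronically raised androgen (WSD+T), the second ate the Western-style diet alone (WSD), and control females ate a standard diet. Per the labels, follicles with a clear antrum and no dark oocyte or granulosa cells were pooled by female and ovary, 3.7 ± 0.3 per ovary (kind of error not stated), and lysed whole after the stroma around them was removed. Each array thus measured granulosa cells, follicle wall and cumulus-oocyte complex together, and the androgen dose and the length of the diet were not given in the sources used here. Of the defining genes of granulosa cells, INHA averaged 339 ± 56.8 in WSD+T, 457 ± 236 in WSD and 2032 ± 932 in control (SD, n = 3 each), and INHBB averaged 20.7, 16.1 and 138, in both diet groups under the signal of 21.2 below which genes were left out. The brightest granulosa markers differed less, GATM averaging 3804 ± 417, 3344 ± 1059 and 3901 ± 466 and SERPINE2 4435 ± 481, 4471 ± 819 and 4760 ± 885. AMHR2 averaged 158, 77.9 and 133. The oocyte gene ZP3 averaged 458 ± 52.2, 270.2 ± 114 and 236 ± 75.6 in the same order. Another oocyte gene, the brighter ZP4, was highest in WSD instead, at 407 ± 104, 797 ± 70.2 and 391 ± 125. Signals are linear MAS5 values on 1-colour Affymetrix arrays. Fold changes are differences in log2(signal + 16), which understates changes of dim genes. A gene was called when limma's adjusted p was under 0.05 over all 26383 tested probe sets, and it stands here as its brightest probe set.

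A dividing cell passes from growth-factor-dependent D cyclins to E and A cyclins as it copies its DNA, and B cyclins with their kinase then drive it into mitosis. There condensins compact the chromosomes, CENP proteins build the kinetochore on the centromere, kinesins and Aurora and Polo-like kinases build and steer the spindle, and the anaphase-promoting complex, held back by the BUB checkpoint, releases the chromatids. In a growing antral follicle the mural and cumulus granulosa cells are the main dividing population, theca and vessel cells divide as well, and the oocyte rests in meiotic prophase.

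In each diet group many members with roles in mitosis were called lower than in control follicles. None of 13 tested transport and ciliary kinesins was called lower. Of 9 tested ANAPC subunits of the anaphase-promoting complex, 1 was called lower, in WSD vs control. With 10.7% of all tested genes called lower there, lists of 13 and 9 genes are too short to set these counts apart. Of the 75 tested genes, 17 fell in WSD+T vs control, none rose and 58 did not pass. That compares with 1.73% of all tested genes called lower in that comparison and 0.62% called higher. In WSD vs control, 27 of 75 fell, 2 rose and 46 did not pass, against 10.7% of all tested genes called lower and 4.74% called higher. The median log2 fold change of the 75 was -0.50 in WSD+T vs control and -0.52 in WSD vs control, beside -0.01 and -0.08 over all 10002 tested genes. The WSD+T signals of 42 members lay wholly below the control signals and those of 5 wholly above, against 19.8% and 20.5% of all genes. For WSD the counts were 38 below and 3 above, against 22% and 10.3%. Both comparisons use the same 3 control arrays, so they are not independent of each other. In samples of whole follicles, fewer dividing cells and less of these RNAs per cell cannot be told apart.

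The WSD+T count depended on single arrays and on how the spread was estimated. It was 0 without WSD+T replicate 1 or without WSD+T replicate 3, 10 without WSD+T replicate 2, and 7, 4 and 8 without control replicates 1, 2 and 3, with limma's adjusted p again over all tested probe sets. The WSD count, 29 in either direction, was 16 without control replicate 2 and ran from 21 to 34 without any other single array. WSD+T replicates 1 and 3 were closer to each other (SD of their log2 difference 0.211) than any other pair within a group (0.317 to 1.03), and averaging them as 1 sample left 0 members called in WSD+T vs control. A weight per group for the arrays gave 31 in WSD+T (28 lower, 3 higher) and 12 in WSD (11 lower, 1 higher). A fit of only the 6 arrays compared gave 27 (25 lower, 2 higher) and 13 (all lower).

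**Figure D1:**
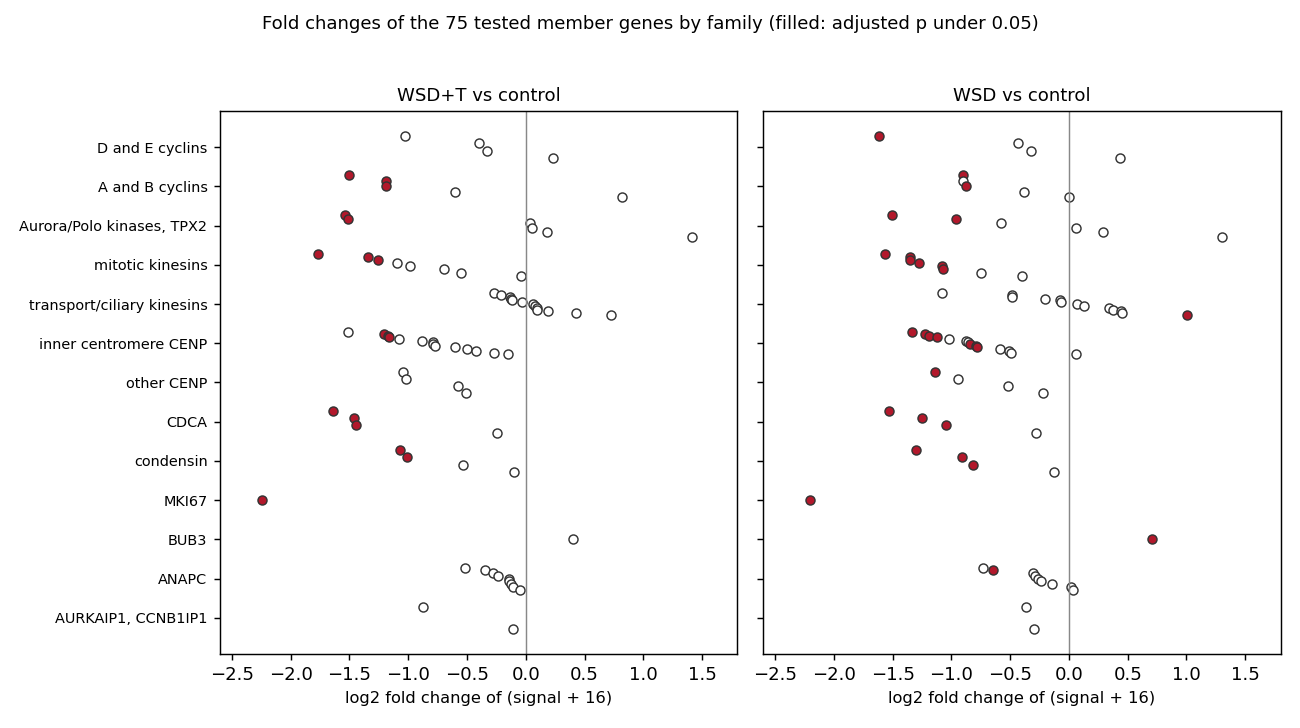
Log2 fold changes of (signal + 16) of the 75 tested member genes, 1 point per gene, by family down the page, for WSD+T vs control on the left and WSD vs control on the right; filled points passed the threshold. The mitotic kinesins, CDCA genes, condensins and MKI67 lie left of zero in both panels. Transport and ciliary kinesins lie on both sides of zero, from -0.27 to 0.72 on the left and from -1.08 to 1.01 on the right. ANAPC subunits run from -0.52 to -0.05 and from -0.73 to 0.03.

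MKI67, which encodes the Ki-67 protein that coats mitotic chromosomes and marks cycling cells, had the largest fall of any member in both comparisons. Its signal was 92.0, 111 and 91.3 on the WSD+T arrays, 122, 78.1 and 108 on the WSD arrays and 444, 736 and 438 on the control arrays. Every control signal was above every signal of the diet groups, and the diet groups overlapped each other. The log2 fold change was -2.25, SE 0.23, adjusted p = 0.0139 in WSD+T vs control and -2.20, SE 0.23, adjusted p = 0.00296 in WSD vs control. Of the 2 dimmer probe sets of MKI67, 1 was called lower, in WSD vs control (-1.59, adjusted p = 0.0218).

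Among the cyclins of the growth and copying phases, 1 of 4 tested genes was called, in WSD vs control alone. CCNE2, an E cyclin that works with CDK2 at the start of DNA replication, had 385, 628 and 379 on the WSD+T arrays, 241, 253 and 416 on the WSD arrays and 869, 1299.6 and 721 on the control arrays. All control signals were above all diet signals, and the diet groups overlapped each other. CCNE2 fell in WSD (-1.61, SE 0.30, adjusted p = 0.0123), and its WSD+T value of -1.02 did not pass (adjusted p = 0.125). Whether these 2 changes differ was tested by WSD+T vs WSD, which gave 0.59 with a 95% interval of -0.10 to 1.28 (adjusted p = 0.310). The other E cyclin, CCNE1, averaged 464 ± 42.7 in WSD+T, 451 ± 14.0 in WSD and 619 ± 69.2 in control (SD, n = 3 each), with adjusted p = 0.172 and 0.0676 against control. The D cyclins CCND1 and CCND3, which couple growth signals to CDK4 and CDK6, did not pass either (0.23 and -0.33 in WSD+T vs control, 0.44 and -0.32 in WSD vs control).

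Of the 5 tested A and B cyclins, 3 fell in WSD+T and 2 in WSD. CCNB1, which with CDK1 drives entry into mitosis, had 868, 1169 and 972 on the WSD+T arrays, 1489, 1097 and 1175 on the WSD arrays and 2038, 2458 and 2397 on the control arrays. The control signals lay wholly above those of both diet groups, and CCNB1 fell in WSD+T (-1.19, SE 0.17, adjusted p = 0.0202) and in WSD (-0.87, SE 0.17, adjusted p = 0.0153). CCNB2, the second mitotic B cyclin, averaged 379 ± 53.3 in WSD+T, 469 ± 93.9 in WSD and 882 ± 95.4 in control, and fell in both comparisons (-1.19 and -0.90). CCNA1, an A cyclin known from the male germ line of mice, fell in WSD+T (-1.5, SE 0.26, adjusted p = 0.0322) and just missed the threshold in WSD (-0.90, adjusted p = 0.0524). CCNA2, the A cyclin of dividing body cells, did not pass on its brightest probe set (-0.60 and -0.39). Its second probe set was called lower in WSD (-1.01, adjusted p = 0.020). CCNB3, a B cyclin of meiotic cells in mice, had 156, 78.1 and 119 on the WSD+T arrays, 52.0, 75.8 and 48.5 on the WSD arrays and 74.5, 72.5 and 33.8 on the control arrays. Its log2 fold change of 0.82 in WSD+T vs control did not pass (adjusted p = 0.195).

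**Figure D2:**
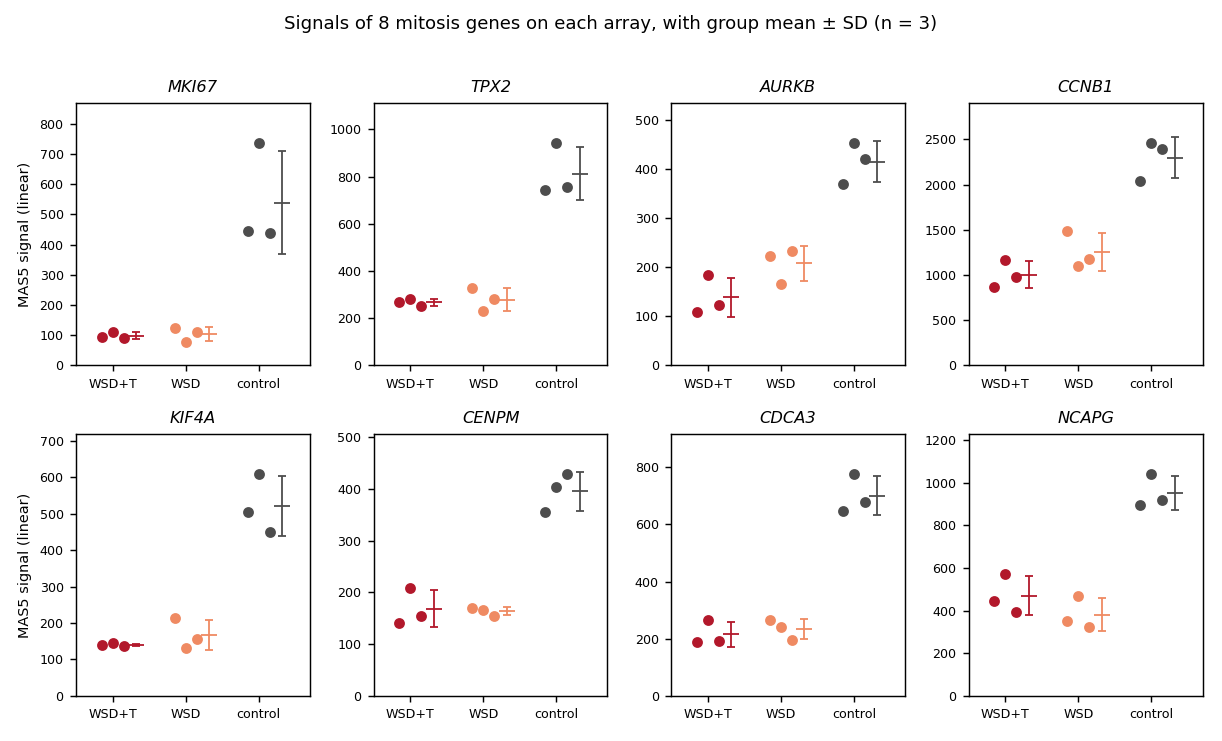
MAS5 signal on a linear scale from 0 for 8 mitosis genes, picked from those called lower in both comparisons. Points are single arrays of the WSD+T, WSD and control groups, and bars give the group mean ± SD (n = 3). In each panel the 3 control arrays lie above all 6 arrays of the diet groups, for MKI67 at 444, 736 and 438. Of all 75 tested members, 42 in WSD+T and 38 in WSD lay wholly below control, against 19.8% and 22% of all tested genes.

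Of the 6 tested genes that are Aurora or Polo-like kinases or TPX2, 2 fell in each comparison and none rose. TPX2, which activates Aurora A and nucleates spindle microtubules, had 269, 281 and 252 on the WSD+T arrays, 326, 227 and 278 on the WSD arrays and 741, 942 and 755 on the control arrays. Its control signals were all above its diet signals, and it fell in WSD+T (-1.54, SE 0.17, adjusted p = 0.0139) and in WSD (-1.5, SE 0.17, adjusted p = 0.00303). AURKB, the Aurora kinase that corrects faulty spindle attachments, had 108, 184 and 123 on the WSD+T arrays, 223, 166 and 233 on the WSD arrays and 369.8, 453 and 422 on the control arrays. It fell in both (-1.51, SE 0.21, adjusted p = 0.0178 in WSD+T and -0.96, SE 0.21, adjusted p = 0.0211 in WSD). AURKA, the Aurora kinase of the spindle poles that TPX2 activates, was 641, 564 and 641 on WSD+T arrays, 419, 624 and 225 on WSD arrays and 609, 627 and 538 on control arrays. These groups overlapped, with WSD replicate 3 the lowest, and AURKA did not pass in either (0.06 and -0.58). AURKC, the Aurora kinase of germ cells, was 133 ± 17.8 in WSD+T, 146 ± 109 in WSD and 44.3 ± 30.8 in control, and its positive values of 1.42 and 1.30 did not pass (adjusted p = 0.191 and 0.125). The stress-responsive Polo-like kinases PLK2 and PLK3 had log2 fold changes between 0.04 and 0.29 and were not called.

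Kinesins are microtubule motors, and their family holds spindle motors beside motors that carry cargo. Of the 8 tested kinesins listed with mitosis, 3 fell in WSD+T and 6 in WSD, with none higher and medians of -1.04 and -1.18. Of the 13 tested kinesins of transport and cilia, none was called lower in either comparison, and 1 rose in WSD (medians 0.07 and 0.07). The difference between these lists was not tested. KIF4A, a motor that sits on chromosomes and the central spindle, had 138, 144 and 138 on the WSD+T arrays, 213, 133 and 157 on the WSD arrays and 505, 609 and 449 on the control arrays. No diet array reached any control array, and it fell in WSD+T (-1.77, SE 0.19, adjusted p = 0.0139) and in WSD (-1.56, SE 0.19, adjusted p = 0.00350). KIF2C, which takes microtubules apart at the centromere, averaged 179 ± 26.4 in WSD+T, 222 ± 66.3 in WSD and 479 ± 70.3 in control and fell in both (-1.35 and -1.08). KIF18A, which damps chromosome oscillation at the metaphase plate, also fell in both (-1.26 and -1.35).

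The other kinesins listed with mitosis were called in WSD or in neither comparison. KIF22, a motor on chromosome arms, fell in WSD (-1.27, SE 0.16, adjusted p = 0.00392), with signals of 191, 197 and 254, against 529, 560.3 and 521 in control. In WSD+T its signals were 299, 384 and 299, between those of the other groups, and it did not pass (-0.70, adjusted p = 0.0665). KIF23, a motor of the midbody in cytokinesis, fell in WSD (-1.07) and just missed the threshold in WSD+T (-1.09, adjusted p = 0.0514). KIF24, a centriole-bound kinesin that restrains cilium formation, fell in WSD (-1.35), where its signals of 20.7, 22.5 and 19.7 were close to the filter's signal of 21.2. The microtubule depolymerase KIF2A, also a motor of neurons, averaged 761 ± 41.7 in WSD+T, 594 ± 105 in WSD and 784 ± 85.6 in control and was not called. KIF20B was not called on its brightest probe set (-0.56 and -0.75), although a dimmer one was called lower in WSD+T (-0.68) and 2 were called lower in WSD (-1.0 and -1.16).

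Among transport and ciliary kinesins, KIF5B, the heavy chain of the main cargo motor of body cells, was 2386 ± 34.5 in WSD+T, 2440.0 ± 191 in WSD and 2234 ± 151 in control, with log2 fold changes of 0.10 and 0.13. The ciliary transport motors KIF3A, KIF3B and KIF3C and the hedgehog regulator KIF7 lay between -0.27 and 0.08 in WSD+T vs control and between -0.49 and 0.07 in WSD vs control, none of them called. The other 7, KIF13A, KIF19, KIF1B, KIF1C, KIF21A, KIF25 and KIF26A, ran from -0.22 to 0.42 and from -1.08 to 0.45 in the same comparisons, without a call. KIF9, a motor of motile cilia, had 652, 648 and 727 on the WSD+T arrays, 896, 604 and 1031 on the WSD arrays and 330.0, 540.5 and 363 on the control arrays. All diet signals were above all control signals, and KIF9 rose in WSD (1.01, SE 0.24, adjusted p = 0.0268) but did not pass in WSD+T (0.72, adjusted p = 0.157). Its other tested probe set gave -0.15 and 0.15, and KIF9 passed in 4 of the 9 fits that left out an array.

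**Figure D3:**
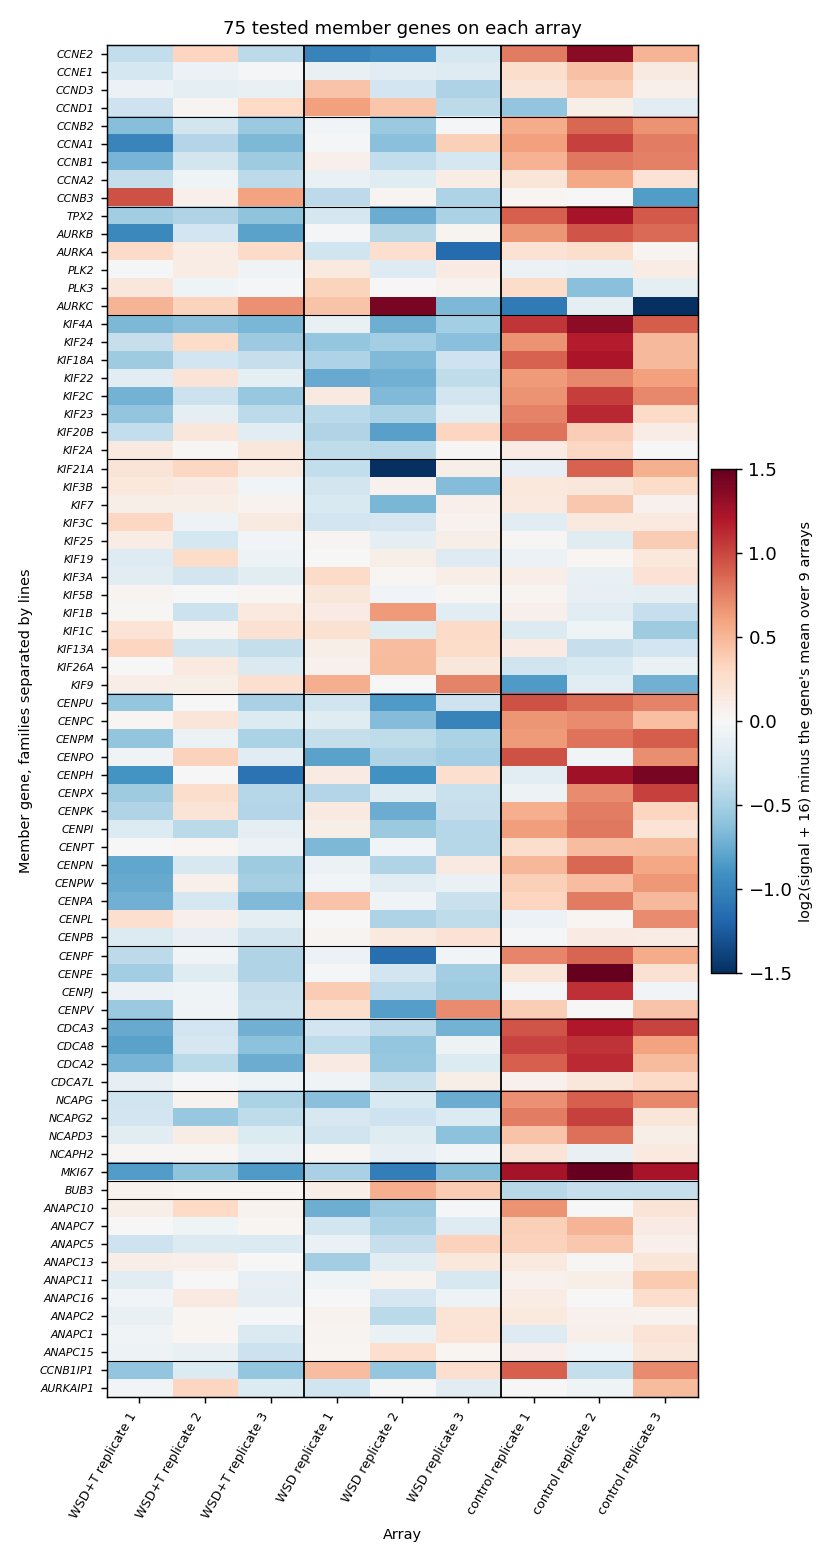
Values of the 75 tested member genes (rows, by family) on the 9 arrays (columns), as log2(signal + 16) minus each gene's mean over the arrays, with colours ending at 1.5 in either direction. The control columns are red for most cyclins of mitosis, mitotic kinesins, CENP, CDCA and condensin genes and pale for transport kinesins and ANAPC subunits.

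CENP proteins that lie on the centromere through the cell cycle numbered 14 tested genes. Of these, 3 fell in WSD+T and 7 in WSD, with none higher and medians of -0.79 and -0.85. The WSD count was 3 under cyclic loess and 3 under median centring, with medians of -0.71 and -0.72. CENPM, a member of the inner kinetochore network, had 141, 208 and 155 on the WSD+T arrays, 170.2, 166 and 155 on the WSD arrays and 355, 403 and 429 on the control arrays. The control signals were all above the diet signals, and CENPM fell in WSD+T (-1.17, SE 0.16, adjusted p = 0.0178) and in WSD (-1.19, SE 0.16, adjusted p = 0.00489). CENPU and CENPN of the same network fell in both comparisons as well (-1.21 and -1.16 in WSD+T, -1.33 and -0.78 in WSD). The WSD call of CENPN was lost under cyclic loess, median centring and quantile normalization (adjusted p = 0.0586, 0.0955 and 0.0571). CENPC, which links centromeric chromatin to the kinetochore, fell in WSD (-1.22, SE 0.22, adjusted p = 0.0104), with 228, 161 and 122 on the WSD arrays and 422, 438 and 364 on the control arrays. CENPI, CENPO and CENPT also fell in WSD, by 0.84, 1.12 and 0.79 on the log2 scale, calls lost under cyclic loess and under median centring. CENPA, the histone variant that marks the centromere, was 50.2 ± 11.9 in WSD+T, 83.2 ± 27.1 in WSD and 123 ± 22.8 in control and did not pass (adjusted p = 0.0537 and 0.167). CENPB, which binds a repeat of centromeric DNA, was the 1 member of the 14 with a value above zero in WSD vs control (0.06, not called). The other 5, CENPH, CENPK, CENPL, CENPW and CENPX, ran from -1.52 to -0.15 in WSD+T vs control and from -1.02 to -0.49 in WSD vs control, and none was called.

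Of the 4 other CENP genes, 1 was called. CENPF, a large protein of the outer kinetochore that accumulates before mitosis, had 728, 922 and 698 on the WSD+T arrays, 901, 430.0 and 936 on the WSD arrays and 1609, 1764 and 1414 on the control arrays. It fell in WSD (-1.14, SE 0.29, adjusted p = 0.0323) and did not pass in WSD+T on this probe set (-1.02, adjusted p = 0.111), whereas its second probe set passed in both (-1.41 and -1.14). On the first probe set the WSD call was lost under median centring (-1.01, adjusted p = 0.0644). The kinetochore motor CENPE was 25.1, 35.8 and 27.1 in WSD+T, 41.6, 32.2 and 24.8 in WSD and 50.9, 159.7 and 52.6 in control, and control replicate 2 stood far above the others. CENPE (-1.05 and -0.94), the centriole protein CENPJ (-0.51 and -0.52) and CENPV (-0.58 and -0.22) were not called.

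Of the 4 tested CDCA genes, 3 fell in each comparison. CDCA3, which promotes entry into mitosis through turnover of the WEE1 kinase, had 187, 266 and 192 on the WSD+T arrays, 265, 243 and 194 on the WSD arrays and 646, 777 and 680.1 on the control arrays. Its control signals were all above its diet signals, and it fell in WSD+T (-1.64, SE 0.18, adjusted p = 0.0139) and in WSD (-1.53, SE 0.18, adjusted p = 0.00344), as did its second probe set (-1.56 and -1.46). CDCA8, also called borealin, is a partner of AURKB, and it fell too (-1.46 and -1.25). CDCA2, which brings a phosphatase to chromatin at anaphase, fell by 1.45 and 1.05 on the log2 scale. CDCA7L, a MYC-interacting nuclear protein, was 1975 ± 58.5 in WSD+T, 1947 ± 281 in WSD and 2353 ± 181 in control and was not called.

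Condensins are rings that fold the chromosomes, and of their 4 tested subunits 2 fell in WSD+T and 3 in WSD. Under median centring these counts were 1 and 1, and under cyclic loess 2 and 2. NCAPG, of the condensin I complex, had 446, 573 and 392 on the WSD+T arrays, 352, 468 and 321 on the WSD arrays and 895, 1041 and 920.4 on the control arrays, again with every control array above every diet array. It fell in WSD+T (-1.01, SE 0.19, adjusted p = 0.0410) and in WSD (-1.30, SE 0.19, adjusted p = 0.00608). NCAPG2 and NCAPD3 belong to condensin II. NCAPG2 fell in both (-1.07 and -0.91), NCAPD3 fell in WSD (-0.81), and NCAPH2, of that complex too, was called in neither (-0.10 and -0.13).

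BUB3, the checkpoint protein that brings its partner kinases to the kinetochore, was 1 of the 2 members that rose. Its signal was 1519, 1494 and 1493 on the WSD+T arrays, 1555, 2142 and 1909 on the WSD arrays and 1099, 1149 and 1146 on the control arrays. All control signals were below all diet signals, and the WSD arrays were the highest. BUB3 rose in WSD (0.70, SE 0.14, adjusted p = 0.0164), and its WSD+T value of 0.40 did not pass (adjusted p = 0.184). It passed in WSD in 9 of the 9 fits that left out an array and was not called when only the control and WSD arrays were fitted (adjusted p = 0.0808).

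**Figure D4:**
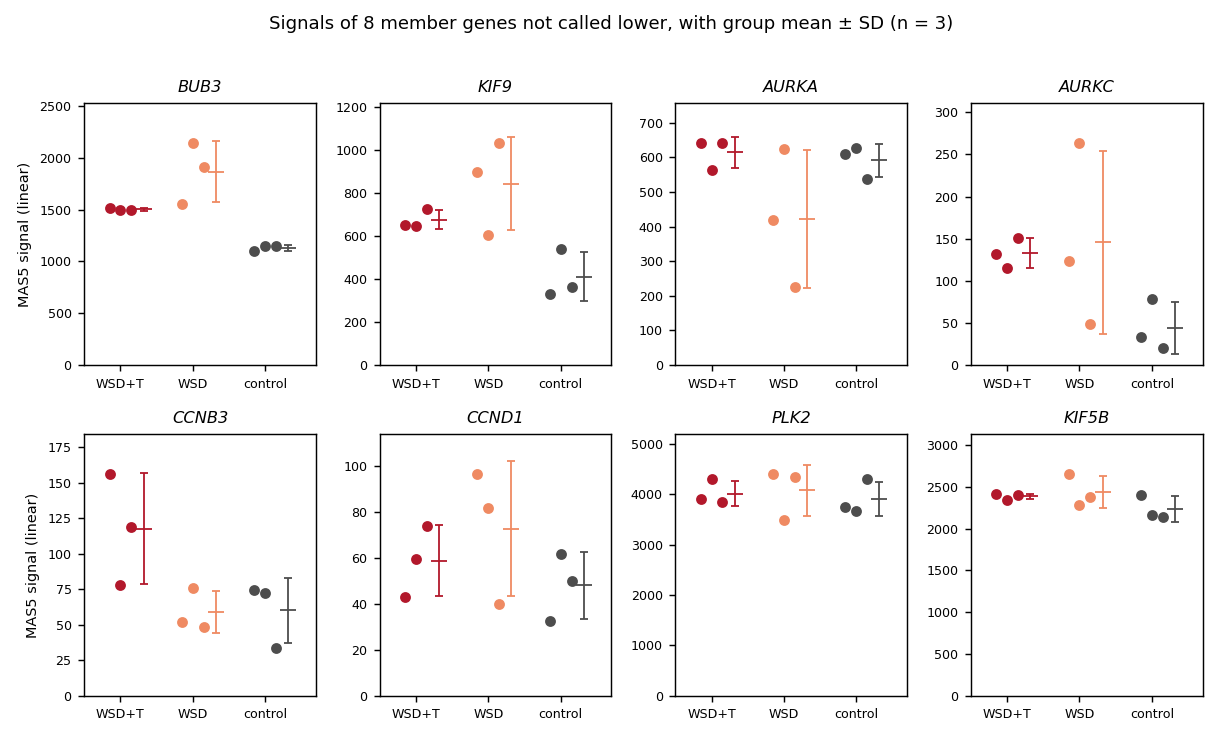
MAS5 signal on a linear scale from 0 for 8 member genes that were not called lower, with 1 point per array in the WSD+T, WSD and control groups and bars for the group mean ± SD (n = 3). BUB3 and KIF9 are higher on all 6 diet arrays than on any control array, while AURKA, CCND1, PLK2 and KIF5B overlap between groups.

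The anaphase-promoting complex is present in resting cells as well as dividing ones. Of its 9 tested ANAPC subunits, none was called in WSD+T and 1 in WSD, with medians of -0.15 and -0.26. All 9 values were below zero in WSD+T vs control and 7 were in WSD vs control. Signals of 5 subunits in WSD+T and 4 in WSD lay wholly below control, against 19.8% and 22% of all tested genes. ANAPC7, a scaffold subunit, was 581 ± 20.2 in WSD+T, 468 ± 47.3 in WSD and 746 ± 102 in control and fell in WSD (-0.65, SE 0.15, adjusted p = 0.0232), a call lost under median centring (-0.52, adjusted p = 0.0989). ANAPC11, the catalytic RING subunit, was 473 ± 25.8, 478 ± 50.4 and 579 ± 78.8 in the same order (-0.28 and -0.26, neither called), and its 2 other probe sets had values above zero. The other 7, ANAPC1, ANAPC10, ANAPC13, ANAPC15, ANAPC16, ANAPC2 and ANAPC5, ran from -0.52 to -0.05 in WSD+T vs control and from -0.73 to 0.03 in WSD vs control. The subunits outside the ANAPC names, CDC16 and CDC26, and the activator FZR1 were not called either. Their log2 fold changes lay between -0.20 and 0.16 in WSD+T vs control and between -0.44 and 0.21 in WSD vs control.

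The follicles of androgen-treated and untreated females on the diet were then compared with each other. In WSD+T vs WSD none of the 75 tested members passed limma's threshold, and 10 had an unadjusted p under 0.05, while 2.85% of all tested genes were called. The members' median log2 fold change was -0.01, against 0.09 over all tested genes, with 38 values below zero and 37 above. MKI67 differed by -0.04 (95% interval -0.57 to 0.49), TPX2 by -0.04 (-0.42 to 0.34) and CENPM by 0.02 (-0.35 to 0.39). The interval lay within 1 log2 unit of zero for 61 of the 75 genes, and a missed threshold does not show that the groups were alike. The smallest p belonged to KIF22, whose WSD+T signals were all above its WSD signals (0.58, SE 0.16, adjusted p = 0.0846, interval 0.21 to 0.94). KIF22 was called once, without WSD replicate 3 (adjusted p = 0.0419, highest over the alternatives 0.284). AURKB and CENPA had negative values (-0.55 and -0.56) and CENPC and CCNB3 positive ones (0.62 and 0.81), none past the threshold (adjusted p from 0.152 to 0.207).

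**Figure D5:**
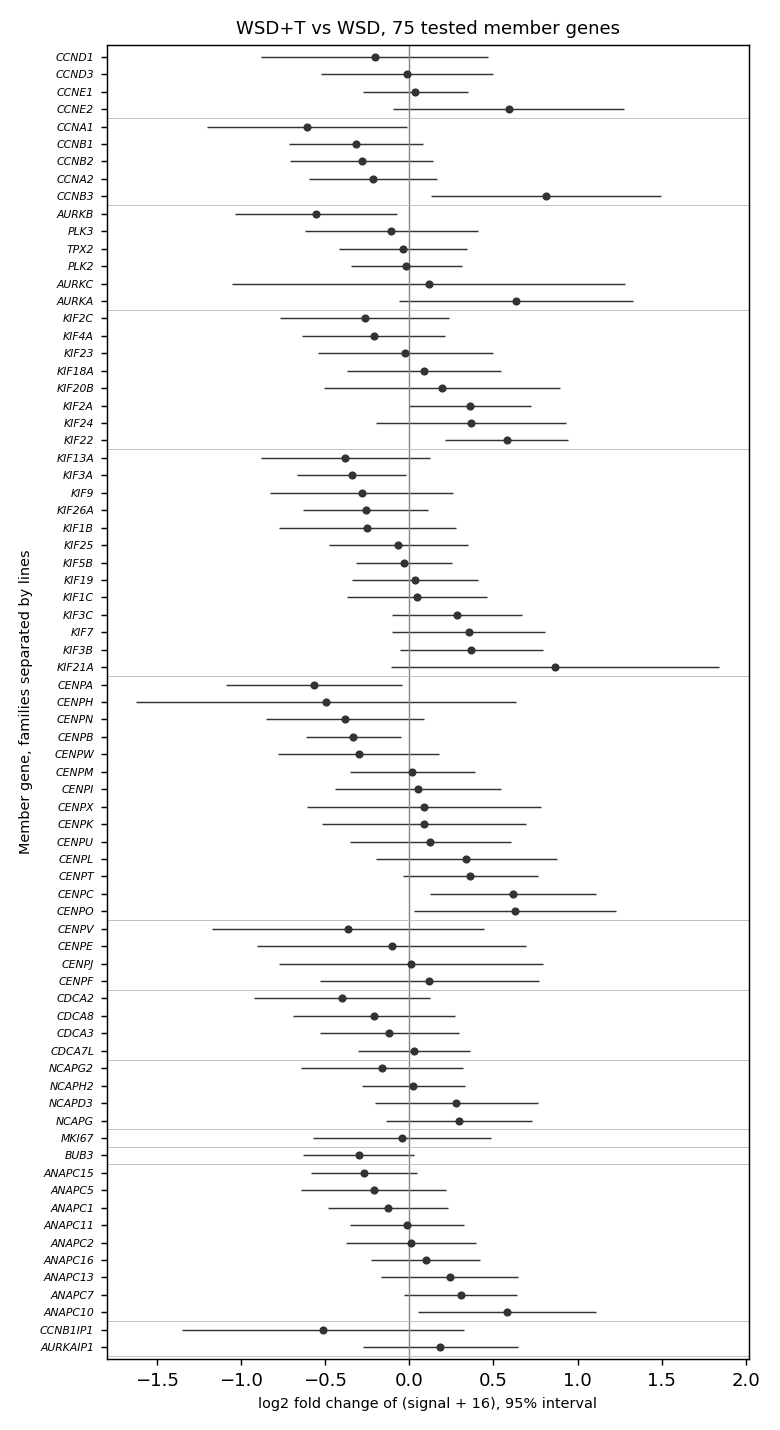
Log2 fold changes of (signal + 16) in WSD+T vs WSD for the 75 tested member genes, 1 row per gene by family, with 95% intervals. The points scatter on both sides of zero, from -0.61 for CCNA1 to 0.87 for KIF21A.

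Mitosis genes outside these name families were taken from a list of other spindle, kinetochore and regulator genes. Of its 49 tested genes, 23 fell in WSD+T vs control and 29 in WSD vs control, beside 1.73% and 10.7% of all tested genes, with none higher and medians of -0.89 and -0.91. FOXM1, the transcription factor of many mitosis genes, was 227 ± 44.3 in WSD+T, 254 ± 35.2 in WSD and 669 ± 77.9 in control and fell in both (-1.51, SE 0.18, adjusted p = 0.0142, and -1.34, SE 0.18, adjusted p = 0.00449). TACC3, a spindle protein, fell by 1.20 and 1.23 on the log2 scale, and OIP5, which helps load CENPA, by 1.27 and 1.77. SMC2, the ATPase core shared by both condensins, fell as well (-1.14 and -1.01), as did SPC25 of the outer kinetochore (-1.42 and -1.10). Of the cyclin-dependent kinases, CDK2 fell in WSD (-0.60, adjusted p = 0.0442), and CDK1, CDK4, CDK6 and CDK7 were not called. In WSD+T vs WSD none of the 49 was called, and the 3 with the smallest p were PTTG1, the securin that restrains chromatid separation, the kinetochore protein DSN1 and the spindle motor KIFC1 (-0.50, 0.43 and -0.61, adjusted p = 0.0859, 0.164 and 0.210). CDK1, the partner of the B cyclins, varied widely within control, at 775, 1869 and 521.

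Markers of the cells in a follicle were read in the same way. Granulosa and theca markers had medians below zero in both comparisons. The summed signal of 10 tested granulosa markers, of 12 listed, ran from 10385 to 12192 on WSD+T arrays, from 6992 to 13019.8 on WSD arrays and from 13324 to 17791 on control arrays. Their median log2 fold changes were -0.93 and -0.81, and INHA and INHBB were called lower in both comparisons. INHBB averaged under the filter's signal of 21.2 in both diet groups and was tested only through its control signals. The other 8 were not called. CYP19A1 (-2.35 and -0.48), HSD17B1 (-1.83 and -1.88), AMH (-1.29 and -0.97), NR5A1 (-0.57 and -0.53) and NR5A2 (-0.53 and -0.83) were below zero in both comparisons. AMHR2 was below zero in WSD alone (0.22 and -0.78). The brightest, SERPINE2 (-0.09 and -0.09) and GATM (-0.03 and -0.27), weigh most in the sums. Signals of 7 of the 10 lay wholly below control in WSD+T and 5 in WSD, against 19.8% and 22% of all tested genes. For 5 tested theca markers, of 9 listed, the sums were 2984 to 3097, 3109.9 to 4927 and 3947 to 5020.0 in the same order of groups, with medians of -1.03 and -1.15. HSD3B2 and PTCH1 were called lower in both comparisons and CYP17A1 in WSD. GLI1 was called in neither (-1.03 and -1.15). STAR, the brightest of the 5 and the largest part of the sums, was not called either (-0.05 and 0.34).

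Markers of other cells lay mostly above zero in WSD+T vs control. The 11 tested macrophage and myeloid markers, of 14 listed, summed to 15336 to 16706 in WSD+T, 1392 to 23399 in WSD and 2097 to 9900.2 in control. Their medians were 1.82 and 1.12, none was called, and 10 of the 11 had WSD+T signals wholly above control, against 20.5% of all tested genes. The 8 tested endothelial markers, of 10 listed, summed to 2196 to 2540.2, 655 to 4017 and 1161 to 1833. Their medians were 0.79 and 0.19, with no call, and 7 of 8 lay wholly above control in WSD+T, against the same 20.5%. The 9 tested oocyte markers, of 17 listed, summed to 1353 to 1587, 1165 to 1656 and 556 to 1172 (medians 0.66 and 0.14), and FIGLA rose in WSD+T and ZP4 in WSD. The 4 tested smooth muscle and pericyte markers, of 8 listed, summed to 4351 to 4748, 3321 to 4076 and 2490.3 to 3255 (medians 0.51 and 0.32), and TAGLN rose in WSD. The 6 tested stromal markers, of 8 listed, summed to 9770.2 to 11621, 6262 to 10169 and 9252 to 10410.5 (medians 0.13 and -0.47), and LUM fell in WSD. Of 10 lymphocyte markers listed, 2 were tested and neither was called. No marker on any list was at 0, but the oocyte gene NOBOX and the B-cell gene CD79A stayed under 10 on average in every group. The part of these cell types in the fall of the mitosis genes was not tested.

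A family's mean on each array, with every gene centred on its mean over the arrays, put the 3 control arrays above all 6 diet arrays for mitotic kinesins (-0.28 ± 0.17 in WSD+T, -0.41 ± 0.19 in WSD and 0.69 ± 0.23 in control), CDCA genes (-0.46 ± 0.19, -0.28 ± 0.17 and 0.74 ± 0.15) and condensins (-0.19 ± 0.10, -0.30 ± 0.10 and 0.49 ± 0.19). The control arrays were also above all diet arrays for A and B cyclins, D and E cyclins, both CENP lists and ANAPC subunits. For ANAPC subunits the means were -0.05 ± 0.06, -0.12 ± 0.14 and 0.17 ± 0.04. For transport and ciliary kinesins these means were 0.03 ± 0.06, 0.00 ± 0.09 and -0.03 ± 0.05, and the groups overlapped. They overlapped too for the Aurora and Polo-like kinases with TPX2. Within control, replicate 2 was the highest array for mitotic kinesins, CDCA genes, condensins and MKI67. Within WSD+T, replicate 2 was the highest for each of the 4.

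The 2 genes that matched by name alone, AURKAIP1 and CCNB1IP1, had -0.11 and -0.88 in WSD+T vs control and -0.29 and -0.37 in WSD vs control, without a call. Other probe sets of the same genes were read as a check on the brightest ones. Of 37 members with several tested probe sets, 11 had values of both signs in WSD+T vs control and 4 in WSD vs control, and no gene was called in both directions. With every probe set counted, 25 of 131 were called lower in WSD+T and none higher, against 1.43% and 0.542% of all tested probe sets. In WSD, 41 were called lower and 2 higher, against 9.68% and 4.78%.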

How the data were processed

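Whole-follicle RNA of 9 samples was amplified by a NuGEN protocol and hybridised to 1 array each, per the labels. The deposited values are linear MAS5 signal intensities per probe set, per the submitters' processing notes (version not stated). The mean without the lowest and highest 2% was 200.0 on every array, so the authors had scaled the arrays to a common level, and medians ran from 15.9 to 23.8. Detection calls were not used here, and no genome build is named. The number of arrays limits the precision.

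Of 52865 probe sets, 99 controls were left out. Gene symbols are those of GEO's platform annotation (24956 probe sets with 1 symbol, 361 with several, 27449 with none), and all 155 member probe sets had an Entrez ID with the same symbol in a RefSeq table. Values were taken as log2(signal + 16), and the 26383 probe sets with a mean at or above the median of 5.22 were tested, a signal of about 21.2. All 9 arrays entered 1 fit of group means, by lmFit and eBayes of limma 3.58.1 under R 4.3.3 (6 residual and 2.69 prior degrees of freedom), adjusted by Benjamini-Hochberg within each comparison. The spread is thus shared, although the mean within-group variance was 0.0411 in WSD+T, 0.330 in WSD and 0.152 in control. The steps were tested on data simulated with the same spread in all groups, which cannot show how they act where the spread differs between groups. Plots were made by matplotlib 3.10.9 (Python 3.11.15). The members, lists and named genes were chosen with earlier results of these data known. Named were up to 20 lower and 10 higher members per comparison by size, up to 3 genes per list by p, and a fixed set. Outside that rule stand CDCA7L, NCAPH2, CENPI, CENPT, KIF20B, KIF3C, KIF5B, KIF7, CDK1 and members given as a range, picked with their values in view. A planned display of promoters was not run. Replicates are biological per the labels, and no 2 arrays of a group shared more than 1 identical value. Same-numbered arrays of different groups had residual correlations from -0.30 to 0.19, and differently numbered arrays from -0.45 to 0.43. These cannot decide whether the numbers pair the samples. The sample titles do not state a pairing, and the main fit had no block. Alternatives were another pseudocount (1 or 64), no filter or a filter at the 75th percentile, quantile, median or cyclic loess normalization, array weights per group, only the arrays compared, WSD+T replicates 1 and 3 averaged, the replicate number as a block, the mean of a gene's probe sets, and leaving out each array.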

Additional observations from a re-analysis of the deposited data

How the results depend on the processing

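The called members were followed through every alternative that tested the gene's brightest probe set, so without the mean of a gene's probe sets. The sign of the fold change held for all 17 called in WSD+T vs control and all 29 called in either direction in WSD vs control. In WSD vs control, 11 of these 29 passed in every alternative that tested them, among them TPX2, KIF4A, CDCA3, CENPM and NCAPG. MKI67 and KIF18A, also among the 11, were tested in 19 of the 20 alternatives. In WSD+T vs control none of the 17 passed in every alternative. Leaving out 1 array, the members called numbered 16 to 34 in WSD vs control, 0 to 21 in WSD+T vs control and 0 to 1 in WSD+T vs WSD, and all probe sets called numbered 1735 to 6628, 0 to 1777 and 0 to 1548. Array weights per group gave 12 members in WSD vs control and 31 in WSD+T vs control, and 1367, 3267 and 186 probe sets in WSD vs control, WSD+T vs control and WSD+T vs WSD. With only the 6 arrays compared, the members numbered 13 and 27, and the probe sets 913, 3245 and 9. With WSD+T replicates 1 and 3 averaged as 1 sample, the members in WSD+T vs control numbered 0 and the probe sets 2544, 0 and 0. With the replicate number as a block, the members numbered 20 in WSD vs control and 0 in WSD+T vs control, and the probe sets 2220, 3 and 1. Residual correlations were above 0.1 in 4 of 9 same-numbered pairs and in 7 of 18 differently numbered pairs. With 3 arrays per group they cannot show whether same-numbered arrays shared a batch. The filter at the 75th percentile gave 2398 probe sets in WSD vs control, and median centring gave 300 in WSD+T vs WSD. The cause of these shifts was not tested. Of all probe sets called in WSD vs control, 2555 were lower and 1262 higher, and under cyclic loess, median centring and quantile normalization 1737, 1286 and 1967 were lower and 1714, 1459 and 1498 higher. In WSD+T vs WSD, 250 were lower and 539 higher, and under the same normalizations 381, 180 and 324 were lower and 287, 120 and 303 higher. The members lower in WSD vs control then numbered 22, 19 and 26. Low signal limits KIF24, CENPO and the dimmer probe sets, whose fold changes depend on the pseudocount.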
